A study of Rattus norvegicus with 19 samples.

Results

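Genes that open, mark and read chromatin make up a large class of the genes in which rare damaging variants have been linked to autism and developmental delay, and 39 such regulators were followed here in the hippocampus of rats with altered dosage of the interval that corresponds to human 16p11.2. They were taken by symbol from a list of names, and the rule used no measured value, though the list was chosen with earlier results of these data known. Of the 39, 37 had a row in the files, each under 1 Ensembl identifier, of 32623 genes in all, and all 37 passed the filter on low counts, as did 15440 genes of the whole table. *Ep300* and *Kmt2c* had no row under these symbols and were not analysed here. The 19 libraries came from adult male Sprague Dawley rats, an outbred stock, 1 library per animal. There were 6 wild-type (wt) rats, 4 rats heterozygous for the deletion (Del/+, 1 copy), 5 heterozygous for the duplication (Dup/+, 3 copies), and 4 in which a deleted chromosome faces a duplicated one (Del/Dup), so that 2 copies remain as in wt. The deletion and the duplication of the segment from *Sult1a1* to *Spn* on rat chromosome 1 were made with CRISPR/Cas9, are constitutive and were carried in crosses that gave all 4 genotypes as littermates; each was studied as 1 line.

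DNA in the nucleus is wound on histones, and the regulators followed here act on this packing in different ways. Remodellers use ATP to slide or evict nucleosomes, methyltransferases and acetyltransferases write marks on histone tails, demethylases erase them, adaptor proteins read the marks or tie enzymes into complexes, and transcription factors bring these machines to particular sequences. The Mediator kinase module binds reversibly to Mediator, the complex that links transcription factors to RNA polymerase, and regulates that link, and a kinase and a ubiquitin ligase of the list act on many nuclear proteins. Several members, among them *Chd8*, *Arid1b* and *Adnp*, are haploinsufficient in humans, which means that loss of a single gene copy is enough to cause disease, so that modest differences in their level are of interest.

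Depth was 16191192 to 38760645 reads in genes per library. Multi-mapped reads, those with several equally good places in the genome, separated the libraries: their share was 40.1% to 50.5% in all wt and Dup/+ libraries and in Del/+ replicate 4, and 57.8% to 76.3% in Del/+ replicates 1 to 3 and in all Del/Dup libraries. For Del/Dup against wt this split cannot be told apart from the genotype. For wt replicate 5, a field of the label read Dup/+ while the description read wt; it was counted as wt. Chromatin and transcription genes of the interval itself served to check the genotypes. *Ino80e*, a subunit of the INO80 remodeller, stood at 33.9 to 37.7 counts-per-million (CPM) in wt, with 34.9 in wt replicate 5. Its Del/+ libraries had 17.1 to 21.0 CPM, the Dup/+ libraries 49.1 to 55.8 CPM and the Del/Dup libraries 36.0 to 37.2 CPM. *Hirip3* and *Maz* had folds of 0.550 and 0.410 in Del/+ and of 1.58 and 1.53 in Dup/+, all with an adjusted p under the threshold in edgeR's quasi-likelihood test. *Pagr1*, at 2.11 CPM in Del/+ and 4.41 in wt, was lower in Del/+ (adjusted p = 2.71e-05), while its fold of 1.39 in Dup/+ did not pass (adjusted p = 0.0698).

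None of the 37 regulators was called, that is, reached an adjusted p under 0.05 over all 15440 genes in edgeR, in any of the 4 comparisons. Against wt, 0 of 37 were called in Del/+, where 0.771% of all genes were called, 0 of 37 in Dup/+ (0.272% of all genes), and 0 of 37 in Del/Dup (0.0907% of all genes). Between Del/+ and Del/Dup, which carry the same deleted chromosome but differ in the number of copies, 0 of 37 were called beside 0.175% of all genes. DESeq2 called 1 member, *Arid1b*, in Del/+ and 0 in the other comparisons. With calls this rare among all genes, a count of 0 among 37 is near the background in each comparison.

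At an unadjusted p under 0.05 the count was 3 of 37 in Del/+ (18.4% of all genes), 0 in Dup/+ (8.94% of all genes), 4 in Del/Dup (16.2% of all genes) and 0 between Del/+ and Del/Dup (8.48% of all genes). None of these counts stood above the background share. The libraries of both groups did not overlap for 1 member in Del/+ against wt (4.94% of all genes) and for 0 members in Dup/+ (1.17%), in Del/Dup (2.56%) and between Del/+ and Del/Dup (4.37%).

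Most differences were small as well as uncalled, with *Foxp2* furthest from wt at a fold of 1.87 in Del/+ and 2.59 in Del/Dup (95% interval 1.38 to 4.85). The median log2 fold change of the 37 regulators was -0.03 in Del/+, -0.02 in Dup/+, -0.02 in Del/Dup and -0.01 for Del/+ against Del/Dup, beside medians of 0.00 over all genes. In Del/+ and in Dup/+, 25 of 37 members had a value below wt, and 23 of 37 in Del/Dup, beside 49.8%, 50.8% and 49.7% of all genes; the comparisons share the wt libraries. For 30, 31 and 30 members the 95% interval of the difference from wt lay within 1.2-fold up or down in Del/+, Dup/+ and Del/Dup, as did 45.8%, 54.0% and 46.1% of all genes, and for 32 members between Del/+ and Del/Dup (46.9% of all genes). For these members a difference from wt larger than 1.2-fold lay outside the interval. The intervals of *Foxp2*, *Tbr1*, *Asxl3* and *Auts2* reached past 1.2-fold in every comparison, so that their intervals, which also hold larger differences, bound these members less closely. The median of Dup/+ was 0.01 when wt replicate 5 was counted as Dup/+, and the median of Del/Dup was 0.01 without the libraries with over 100 CPM of *Ttr* and 0.00, above zero, with libraries scaled by their size alone.

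**Figure D1:**
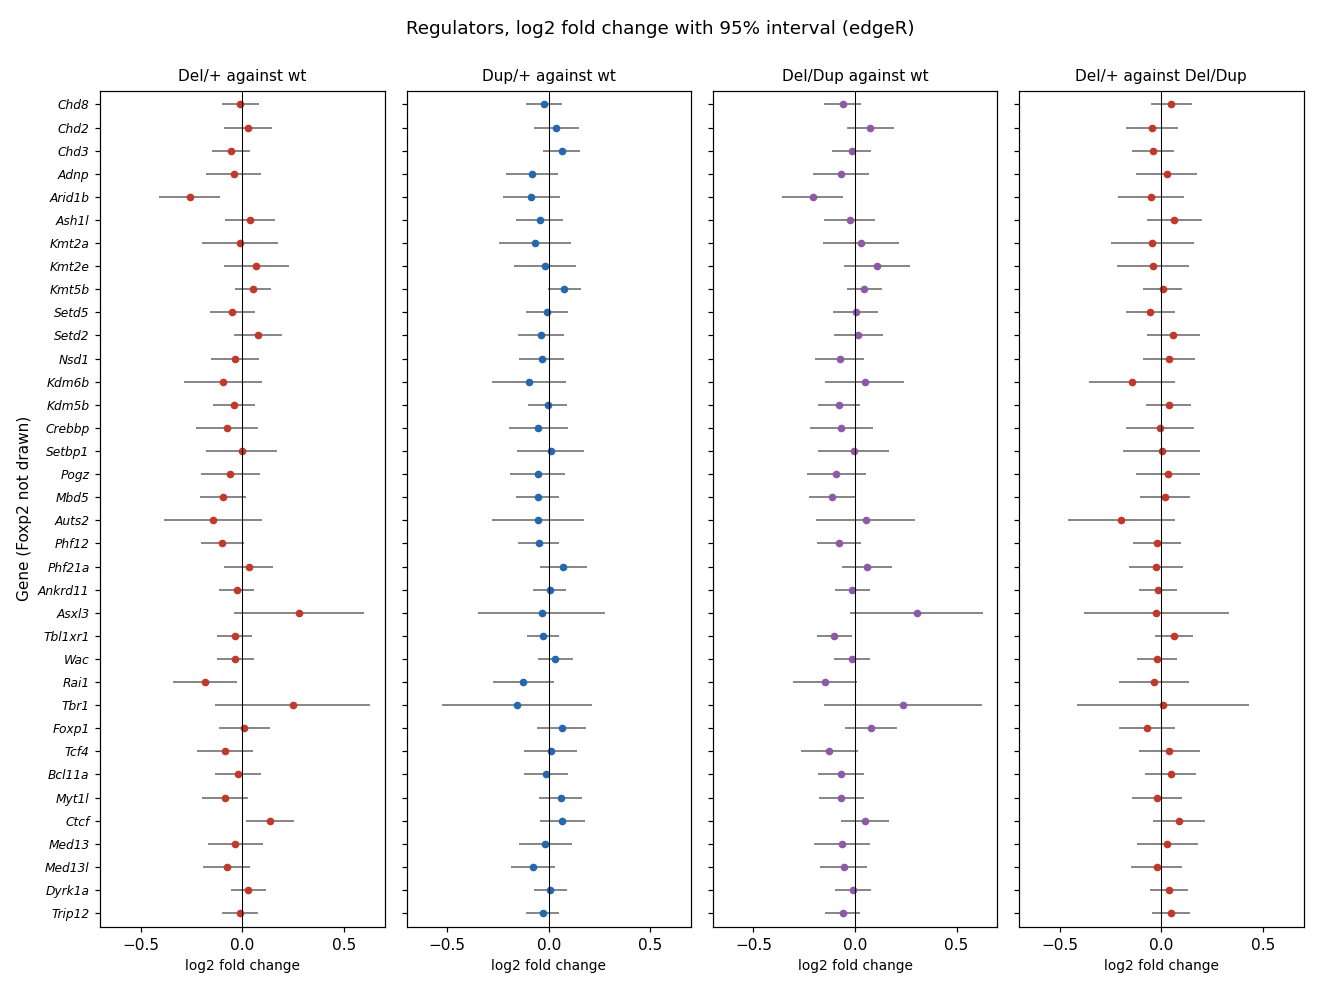
Log2 fold change (dot) and its 95% interval (line) from edgeR for 36 of the 37 regulators in the 4 comparisons, 1 panel each, with a vertical line at no difference and *Foxp2* left out because its interval runs to 2.28. Most intervals cross the line at zero, and *Arid1b* lies furthest below it in Del/+ against wt, at -0.26.

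Among the chromatin remodellers, *Arid1b* stood apart from the other members of its group. *Arid1b* encodes a DNA-binding subunit of the BAF (SWI/SNF) remodelling complex, and loss of 1 copy causes Coffin-Siris syndrome in humans. Its level in the 6 wt libraries was 213 at the lowest, 238 at the median and 257 CPM at the highest. The 4 Del/+ libraries stood at 207, 184, 211 and 191 CPM, all below every wt library, the only member for which these groups did not overlap. The 5 Dup/+ libraries, at 223, 227, 209, 236 and 222 CPM, and the 4 Del/Dup libraries, at 169, 235, 203 and 215 CPM, overlapped with wt. The mean of wt was 237 ± 14.2 (SD, n = 6) CPM, that of Del/+ 198 ± 12.6 (SD, n = 4), that of Dup/+ 223 ± 9.70 (SD, n = 5) and that of Del/Dup 205 ± 27.6 (SD, n = 4).

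The log2 fold change of *Arid1b* was -0.26 (SE 0.07) in Del/+, a fold of 0.835 with a 95% interval of 0.755 to 0.923, and its adjusted p = 0.0734 in edgeR missed the threshold. It passed with DESeq2 (-0.26, adjusted p = 0.0142) and when wt replicate 4 (adjusted p = 0.0489), Del/Dup replicate 2 (adjusted p = 0.0186) or Del/Dup replicate 3 (adjusted p = 0.0349) was left out of the edgeR fit. Over all alternatives the difference ranged from -0.31 to -0.22 and the adjusted p from 0.0142 to 0.267. Del/+ replicate 4, which shares the low multi-mapped share of the wt libraries, stood at 191 CPM, and the fit of the low-share libraries alone, in which this single Del/+ library is assumed to vary as the wt libraries do, gave -0.31 (edgeR, adjusted p = 0.0818). The difference for Del/Dup was -0.21 (SE 0.07, adjusted p = 0.184). Without Del/Dup replicate 2, the lowest of its group, it was -0.12 (adjusted p = 0.595), and without Del/Dup replicate 3, the highest, -0.27 (adjusted p = 0.0481).

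The same libraries differed in markers of cell types and neighbouring tissue. Del/Dup replicate 2, lowest in *Arid1b*, was also lowest in the dentate granule cell markers. The summed level of the 4 genes of that list was 219 CPM there and 295 to 420 CPM in the other Del/Dup libraries. It was 250 to 326.2 CPM in Del/+ and 326.5 to 409 CPM in wt, narrowly without overlap. Of the 4 genes, 3 had a value below wt in Del/+, 2 with an unadjusted p under 0.05 and 0 called. Del/+ replicate 2, lowest in *Arid1b* within Del/+, had the lowest dentate sum of Del/+, 250 CPM. Other libraries did not follow this order. Del/+ replicate 4, next lowest in *Arid1b* at 191 CPM, had a dentate sum of 315 CPM, above the 313 CPM of Del/+ replicate 3. In wt replicate 4, lowest in *Arid1b* within wt at 213 CPM, the sum was 345 CPM, inside the wt range. Excitatory neuron markers summed to 5035 to 5738 CPM in wt. They summed to 4300 to 4907 CPM in the Del/+ libraries and to 4006 to 5072 CPM in the Del/Dup libraries. The wt and Del/+ sums of this list did not overlap. In Del/+, 5 of 5 genes had a value below wt, 3 with an unadjusted p under 0.05. Del/Dup had 5 of 5 below wt and 4 at such a p, and Dup/+ 4 of 5 and 2. In each of these comparisons 0 were called. Oligodendrocyte markers summed to 4995 to 6468 CPM in wt and 5882 to 8819 in Del/+. All 6 of them had a value above wt in Del/+, with a median of 0.31 and 5 at an unadjusted p under 0.05, and all 6 also in Dup/+ (median 0.14, 1 at such a p) and in Del/Dup (median 0.20, 3 at such a p), with 0 called in each of these comparisons. Choroid plexus markers, from tissue next to the hippocampus, summed to 2.79 to 33.8 CPM in wt, and to 1246 CPM in Del/+ replicate 3, 402 in Dup/+ replicate 2, 1199 in Del/Dup replicate 2 and 569 in Del/Dup replicate 4. Without these 4 libraries *Arid1b* was at -0.28 in Del/+ (edgeR, adjusted p = 0.0241) and at -0.08 in Del/Dup (adjusted p = 0.997). This fit kept carrier libraries whose choroid plexus sum also exceeded every wt library. These were Del/+ replicate 4 (92.6 CPM), Dup/+ replicate 5 (100 CPM) and Del/Dup replicates 3 (111 CPM) and 5 (40.6 CPM). With all libraries, 5 of 5 choroid plexus markers tested had an unadjusted p under 0.05 in Del/+ and in Del/Dup, and 2 in Dup/+, with 0 called. Of the 6 thalamus markers, 5 had a value above wt in Del/+, 4 with an unadjusted p under 0.05 and 0 called, with a median of 0.49. *Slc17a6* stood at 26.2, 33.2, 20.7 and 40.7 CPM in Del/+ and at 12.5 to 23.0 CPM in wt, a difference of 0.81 (adjusted p = 0.0718), and *Prkcd* differed by 1.16 (adjusted p = 0.0556). The summed thalamus level, 133 to 164 CPM in Del/+ and 118 to 145 CPM in wt, is mostly *Plekhg1*, which had a value below wt (-0.13). Of the 6 inhibitory neuron markers, 5 had a value above wt in Del/+, 2 with an unadjusted p under 0.05 and 0 called, and *Pvalb* stood at 38.2 to 49.6 CPM there and at 28.9 to 35.7 CPM in wt (0.40, adjusted p = 0.0650). Of the astrocyte and microglia markers, 5 of 5 and 6 of 6 had a value below wt in Del/+, 2 in each list with an unadjusted p under 0.05 and 0 called. Their sums overlapped between wt and each carrier group, as did *Flt1*, the 1 endothelial marker tested, while *Cldn5* was at 0 in every library. In bulk tissue, fewer cells of a type and less RNA per cell cannot be told apart, and the part of these marker differences in the level of *Arid1b* was not tested.

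The other 4 remodellers differed little between genotypes. *Chd8*, an ATP-dependent remodeller of the CHD family and among the genes most often hit in autism, had a wt mean of 168 ± 8.01 (SD, n = 6) CPM, and Del/+ followed at 167 ± 3.76 (SD, n = 4), Dup/+ at 165 ± 7.55 (SD, n = 5) and Del/Dup at 161 ± 5.71 (SD, n = 4). Its log2 fold change was -0.01 in Del/+, with an interval from -0.10 to 0.08. *Chd2*, another CHD remodeller, had log2 fold changes of 0.03, 0.04 and 0.07 against wt in Del/+, Dup/+ and Del/Dup. *Chd3*, an ATPase of the NuRD complex, was at -0.06, 0.06 and -0.02. *Adnp*, a homeodomain protein that works with the remodeller Chd4, was at -0.04, -0.08 and -0.07. None of these values passed the test.

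Of the 7 histone methyltransferases and their kin that were measured, 4 had a value above wt in Del/+, 1 in Dup/+ and 5 in Del/Dup, with log2 fold changes between -0.08 and 0.11 throughout. *Kmt5b*, which methylates histone H4, was the member of smallest unadjusted p in Dup/+. It stood at 81.7, 83.9, 76.4, 85.6 and 82.6 CPM there and at 75.7 to 80.7 (median 77.6) CPM in wt. The groups overlapped through Dup/+ replicate 3 alone, and the log2 fold change of 0.08 (SE 0.04, adjusted p = 0.555) did not pass. *Kmt2a*, the founding member of the MLL family of histone H3 methyltransferases, spread widely within wt (139 to 201 CPM) and within Dup/+ (139 to 177 CPM). Its differences of -0.01, -0.07 and 0.03 were smaller than that spread. *Ash1l*, *Setd2* and *Nsd1*, whose products methylate another lysine of histone H3, lay within -0.08 and 0.08 of wt in all 3 carrier groups. *Kmt2e* was at 0.07, -0.02 and 0.11 and *Setd5* at -0.05, -0.01 and 0.00.

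The enzymes that remove methyl marks or add acetyl groups did not differ beyond their spread either. *Kdm6b*, which erases the mark of Polycomb repression, was at 15.1 ± 0.878 (SD, n = 6) CPM in wt, while Del/+ had 14.1 ± 1.45 (SD, n = 4), Dup/+ 14.1 ± 2.22 (SD, n = 5) and Del/Dup 15.6 ± 0.863 (SD, n = 4). *Kdm5b* had log2 fold changes of -0.04, -0.01 and -0.08. *Crebbp*, a coactivator that acetylates histones and the partner of the protein made by *Ep300*, was at -0.08, -0.05 and -0.07, with wt libraries from 179 to 236 CPM.

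Of the 11 adaptors and chromatin-bound cofactors, 9 had a value below wt in Del/+, 7 in Dup/+ and 8 in Del/Dup. *Rai1*, a nucleosome-binding regulator whose loss causes Smith-Magenis syndrome, was among the members of smallest unadjusted p in Del/+ and in Dup/+. Its wt libraries ran from 91.9 to 115 CPM with a median of 99.8. The Del/+ libraries stood at 89.9, 89.1, 95.2 and 86.0 CPM and the Dup/+ libraries at 92.8, 88.6, 90.9, 106 and 91.0 CPM. The Del/Dup libraries stood at 76.6, 100.4, 97.4 and 95.1 CPM. Below the wt range lay 3 Del/+, 3 Dup/+ and 1 Del/Dup libraries, and inside it 1, 2 and 3. Del/+ differed from wt by -0.18 on the log2 scale (SE 0.07, adjusted p = 0.186), Dup/+ by -0.12 (adjusted p = 0.614) and Del/Dup by -0.15 (adjusted p = 0.322). Under the other label of wt replicate 5, the Dup/+ value was -0.04 (adjusted p = 0.943).

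*Tbl1xr1*, which links nuclear receptors to the NCoR corepressor, was among the members of smallest unadjusted p in Del/Dup and varied least of all members within genotypes. It stood at 190.4, 206, 189.6 and 203 CPM in Del/Dup and between 199 and 225 (median 209) CPM in wt, with 2 of the Del/Dup libraries below every wt library. The log2 fold change was -0.10 (SE 0.04, adjusted p = 0.220) against wt, and Del/+ exceeded Del/Dup by 0.06 (adjusted p = 0.738). Without the libraries with over 100 CPM of *Ttr*, these values were -0.05 (adjusted p = 0.997) and 0.01 (adjusted p = 0.982). *Mbd5*, a protein with a methyl-CpG-binding domain, differed from wt by -0.11 in the Del/Dup group (adjusted p = 0.284), against -0.10 for Del/+ (adjusted p = 0.327). *Auts2*, which belongs to a Polycomb-type complex, had the smallest unadjusted p for Del/+ against Del/Dup. Its levels were 25.3, 22.4, 25.9 and 21.0 CPM in Del/+ and 21.7, 35.2, 28.2 and 23.6 CPM in Del/Dup. The groups overlapped, and the difference of -0.20 (SE 0.12, adjusted p = 0.724) was -0.05 (adjusted p = 0.953) without Del/Dup replicate 3. *Asxl3*, a partner of the deubiquitinase Bap1, had 7.66 ± 1.37 (SD, n = 6) CPM in wt and 9.33 ± 1.51 (SD, n = 4) in Del/+, a difference of 0.28 (adjusted p = 0.335). Del/Dup stood at 9.46 ± 1.15 (SD, n = 4) CPM, 0.30 above wt (adjusted p = 0.331), and the Dup/+ value was -0.03 (adjusted p = 0.970). The remaining adaptors, *Setbp1*, *Pogz*, *Phf12*, *Phf21a*, *Ankrd11* and *Wac*, lay between -0.10 and 0.07 of wt in every carrier group.

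**Figure D2:**
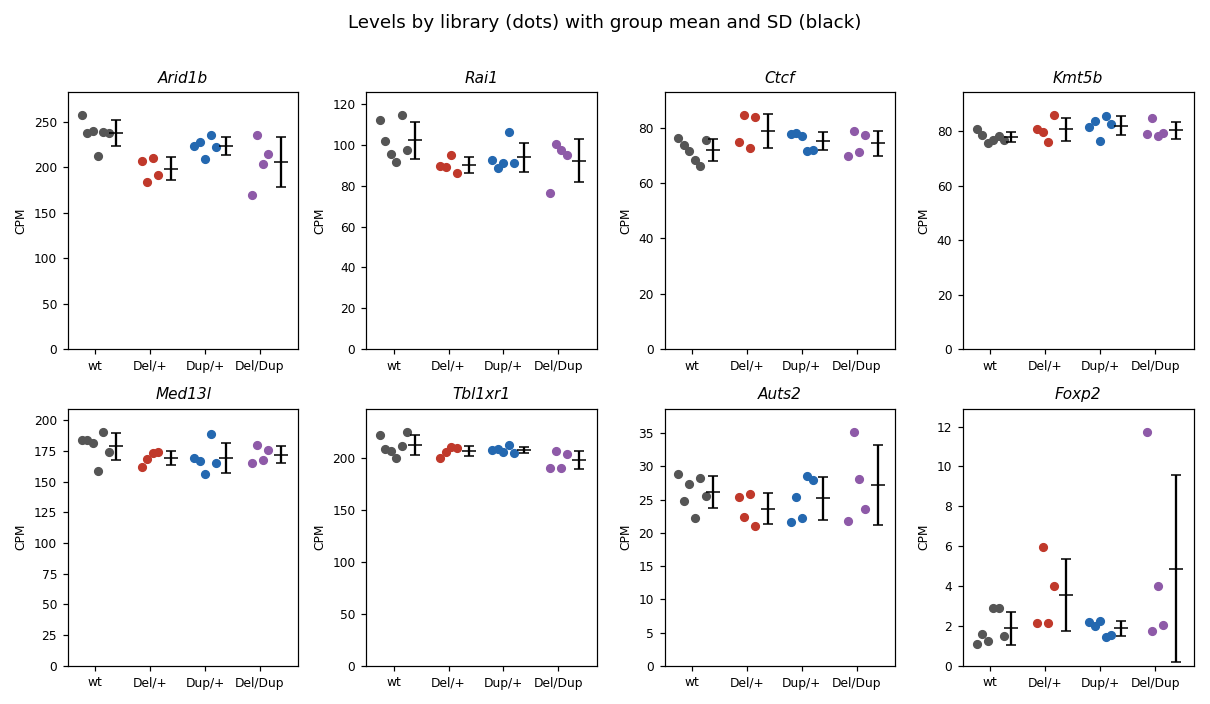
Counts-per-million in each library (dots, colored by genotype) for the 8 regulators that had a smallest unadjusted p in a comparison, with the group mean and SD in black, 1 panel per gene and each vertical axis starting at 0. The 4 Del/+ libraries of *Arid1b* lie below all 6 wt libraries, and the mean of *Foxp2* in Del/Dup is raised by 1 library at 11.7 CPM.

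Among the 7 DNA-binding transcription factors, *Foxp2* had the largest fold and the widest spread. *Foxp2* is a forkhead factor known for its part in speech and marks deep-layer cortical and striatal neurons, and it was the lowest of the members in reads. The 6 wt libraries had 1.12 to 2.92 (median 1.57) CPM, from 33 to 95 reads each. The Del/Dup libraries had 11.7, 1.73, 4.01 and 2.04 CPM and the Del/+ libraries 2.15, 5.95, 2.13 and 4.00 CPM, while Dup/+ stayed between 1.42 and 2.27 CPM. The groups overlapped in every comparison. In Del/Dup the difference of 1.37 on the log2 scale (SE 0.43, adjusted p = 0.173) was 0.48 (adjusted p = 0.732) without Del/Dup replicate 2, and 0.01 (adjusted p = 0.999) without the libraries with over 100 CPM of *Ttr*. In Del/+ it was 0.91 (adjusted p = 0.274) and in Dup/+ -0.00.

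Some markers of neighbouring tissue were also high in libraries with a high *Foxp2* level. *Rprm*, a deep cortex marker, was at 14.1 CPM in Del/Dup replicate 2 and 7.92 CPM in Del/+ replicate 2, and at 1.81 to 5.80 CPM in wt. In Del/+ replicate 4, the next in *Foxp2* within Del/+, *Rprm* was inside the wt range at 4.73 CPM, while the thalamus marker *Slc17a6* was at 40.7 CPM there and at 33.2 CPM in Del/+ replicate 2, above all wt libraries. In the same Del/+ replicate 4, the thalamus markers *Tcf7l2* (5.29 CPM) and *Prkcd* (7.44 CPM) were inside the wt range. *Lef1* (4.06 CPM) was below it, *Plekhg1* was inside it, and *Ramp3* was above all wt libraries. The summed thalamus level of 139 CPM was inside the wt range. In Del/+ replicate 2, *Prkcd* and *Ramp3* were also above all wt libraries, while *Lef1* and *Plekhg1* were below all of them. *Tcf7l2* and the summed thalamus level of that library were inside the wt range. The summed thalamus level was above all wt libraries in Del/+ replicates 1 and 3, where *Foxp2* was inside the wt range. *Tbr1*, a member and a T-box factor of deep-layer glutamatergic neurons, had 33.1 CPM in Del/Dup replicate 2, 38.9 CPM in Del/+ replicate 2 and 18.0 to 27.5 CPM in wt. The deep cortex markers other than *Foxp2*, of which 4 of 5 were in the files, summed to 148 CPM in Del/Dup replicate 2 and 146 CPM in Del/+ replicate 2, and to 125 to 142 CPM in wt. The striatal markers summed to 111 CPM in Del/Dup replicate 2, 98.7 CPM in Del/+ replicate 2 and 81.6 to 91.2 CPM in wt. Their part in the level of *Foxp2* was not tested.

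*Ctcf*, which anchors chromatin loops together with cohesin, was the member above wt with the smallest unadjusted p in Del/+. Its Del/+ libraries had 74.7, 84.5, 72.8 and 84.1 CPM and the wt libraries 66.0 to 76.4 (median 72.8) CPM. Of the 4 Del/+ libraries, 2 lay above all wt libraries and 2 among them. Del/+ exceeded wt by 0.13 on the log2 scale (SE 0.05, adjusted p = 0.187), Del/Dup by 0.05 and Dup/+ by 0.07. Of the other factors, *Tcf4*, a basic helix-loop-helix protein, was at -0.09, 0.01 and -0.13 in Del/+, Dup/+ and Del/Dup. *Myt1l*, a repressor of non-neuronal genes, was at -0.09, 0.06 and -0.07. *Bcl11a* and *Foxp1* lay between -0.07 and 0.08 of wt.

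The Mediator kinase module subunits *Med13* and *Med13l*, which are paralogs, both had values below wt in all 3 carrier groups. For *Med13l*, the wt libraries ran from 159 to 191 (median 182) CPM and the Dup/+ libraries were at 169, 167, 157, 189 and 165 CPM. Its log2 fold change of -0.08 in Dup/+ (SE 0.05, adjusted p = 0.660) was smaller than the range of either group. It was -0.12 without Dup/+ replicate 4, -0.05 without Dup/+ replicate 3 and -0.03 under the other label of wt replicate 5. The protein kinase gene *Dyrk1a*, sensitive to dosage in Down syndrome, had 109 ± 4.31 (SD, n = 6) CPM in wt and 111 ± 3.19 (SD, n = 4) in Del/+, with differences of 0.03, 0.01 and -0.01. The ubiquitin ligase gene *Trip12* was at -0.01, -0.03 and -0.06.

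The partners of the regulators gave 3 calls. Of 135 complex members and paralogs listed, 131 were on 1 row of the files and 130 were tested. In Del/+, 3 of 130 fell and none rose, beside 0.771% of all genes. These were *Hdac4*, a class II histone deacetylase of neurons, at -0.25 (adjusted p = 0.0432), *Dyrk1b*, the paralog of *Dyrk1a*, at -0.27 (adjusted p = 0.0421), and *Kdm4b*, a histone demethylase, at -0.19 (adjusted p = 0.0493). *Kdm4b* stood at 93.2, 90.1, 91.6 and 93.4 CPM in Del/+ and at 100.4 to 110.5 (median 105) CPM in wt, without overlap. *Dyrk1b* stood at 24.1, 24.2, 25.3 and 25.6 CPM in Del/+ and at 26.7 to 31.7 (median 30.6) CPM in wt, also without overlap. *Hdac4* stood at 56.6, 55.4, 60.3 and 55.5 CPM in Del/+ and at 60.0 to 72.4 (median 67.7) CPM in wt, and Del/+ replicate 3 exceeded the lowest wt library. All 3 calls were close to the threshold: of 29 alternatives each, *Hdac4* and *Dyrk1b* stayed past it in 9 and *Kdm4b* in 5. With the low-share libraries alone, which hold 1 Del/+ library and so give no spread of their own for Del/+, the log2 fold change was -0.28, -0.23 and -0.17 for *Hdac4*, *Dyrk1b* and *Kdm4b*. All 3 missed the threshold in edgeR when the multi-mapped share entered as a batch term. They also missed it when it entered as a covariate (adjusted p = 0.0994, 0.111 and 0.121). The part of the marker differences of the same libraries in these levels was not tested.

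No partner was called in Dup/+, in Del/Dup or between Del/+ and Del/Dup, where 12, 19 and 13 of 130 had an unadjusted p under 0.05 in edgeR, or 9.23%, 14.6% and 10.0%, near the 8.94%, 16.2% and 8.48% of all genes. In Del/+ that count was 27 of 130, or 20.8%, near the 18.4% of all genes. Of the 9 genes of the *Ctcf* and cohesin list, 7 had a value above wt in Del/+ and 6 an unadjusted p under 0.05 (18.4% of all genes), with 0 called and a median of 0.09. Against the same wt libraries, Dup/+ had 8 of 9 above wt, 3 with an unadjusted p under 0.05 (8.94% of all genes) and a median of 0.06. Del/Dup had 5 of 9 above, 1 with such a p (16.2% of all genes) and a median of 0.01, and 0 were called in either comparison. *Stag2*, a cohesin subunit, was the highest of them at 0.16 (adjusted p = 0.108). Of the 14 BAF complex genes tested beside *Arid1b*, 10 had a value below wt in Del/+ and 0 were called, with a median of -0.02. In the lists of CHD and NuRD, acetyltransferase and reader, Mediator and transcription factor partners, 0 of 19, 0 of 9, 0 of 7 and 0 of 17 genes were called in Del/+, with medians of 0.01, -0.02, -0.05 and -0.06. An unadjusted p under 0.05 was found for 2, 1, 0 and 8 of them, beside 18.4% of all genes, and 12 of the 17 transcription factor partners had a value below wt. Of the 24 genes of the KMT2 complex and methyltransferase list, 17 lay below wt with a median of -0.03, and *Ehmt2*, which silences genes through histone H3, was at -0.21 (adjusted p = 0.0628) with no overlap between the groups.

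Most of the regulators lay on the same side of their group mean in several single libraries. For each library the difference of each member from the mean of its own group was taken on the log2 CPM scale. In wt replicate 5, 34 of 37 members lay above the wt mean, with a median of 0.09, and in wt replicate 4 only 3 did, with a median of -0.11. In Dup/+ replicate 4, 31 of 37 lay above the mean of the group (median 0.10), and in Dup/+ replicate 3 only 4 did (median -0.10). In Del/Dup replicate 3, 28 lay above (median 0.06), and in Del/+ replicate 1 only 7 did (median -0.05). Over all genes the share above the group mean lay between 48.9% and 52.4% in every library, with medians within 0.01 of zero.

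Between wt replicate 5 and wt replicate 4 directly, 36 of 37 regulators were higher in replicate 5, with a median difference of 0.18, beside 49.1% of all genes and a median of -0.00. The difference was 0.53 for *Kmt2a*, 0.40 for *Crebbp*, 0.35 for *Auts2* and 0.16 for *Arid1b*, and *Ctcf* was the exception at -0.05. These libraries were picked as the highest and the lowest of the wt group in this shift, so the values are a description. Of the 130 partners, 82 lay above the wt mean in wt replicate 5 and 43 in wt replicate 4, and 91 lay above their group's mean in Dup/+ replicate 4. In Del/Dup replicate 2, where 34 of 130 did so, the partners had a median of -0.06 from the group mean and the members -0.04. In Del/+ replicate 2 the partners had a median of -0.00 and the members 0.03. Relative to the wt mean, the median shift of the members by library had a mean of 0.00 ± 0.07 (SD, n = 6) in wt, while Del/+ had -0.03 ± 0.04 (SD, n = 4), Dup/+ -0.02 ± 0.08 (SD, n = 5) and Del/Dup -0.03 ± 0.04 (SD, n = 4), and the ranges overlapped. Of technical measures, wt replicates 4 and 5 had 28428281 and 32520854 reads in genes, a multi-mapped share of 46.6% and 45.4%, and 13.5% and 15.7% of all reads outside genes. The last share is taken over all reads, multi-mapped ones included. Libraries of unlike multi-mapped share therefore cannot be compared in it. Del/Dup replicate 3, the highest in its group with a median 0.06 above the group mean, had 9.18% outside genes at a multi-mapped share of 68.8%. Del/+ replicate 4, with a median 0.00 from its group mean and -0.04 from the wt mean, had 16.1% at a multi-mapped share of 41.6%. The part of these measures in the shift was not tested.

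**Figure D3:**
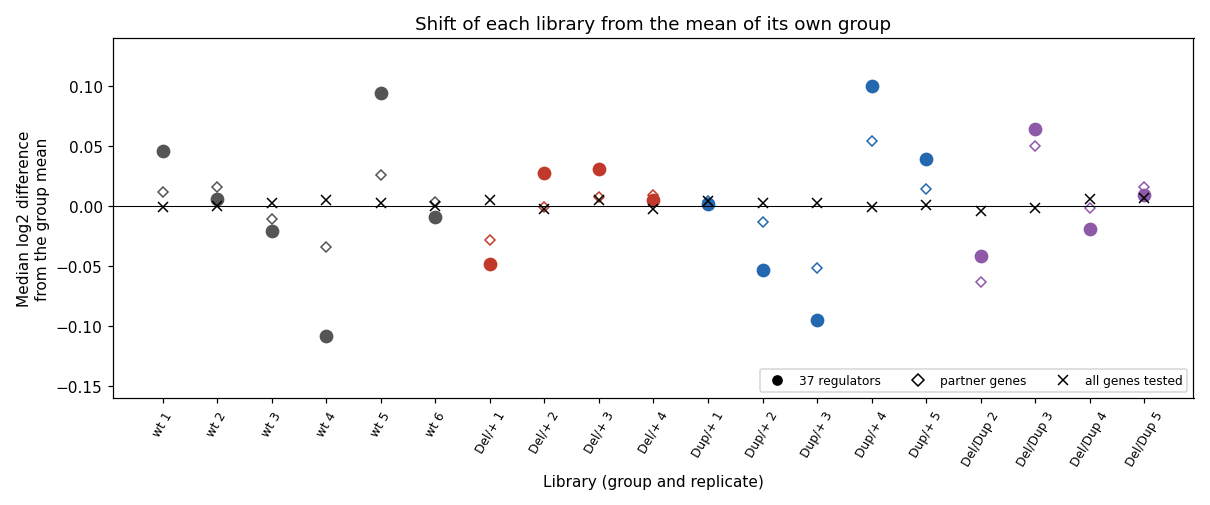
Median log2 difference of each of the 19 libraries from the mean of its own genotype, over the 37 regulators (filled circles), their partner genes (open diamonds) and all genes tested (crosses). The regulators of wt replicate 5 and Dup/+ replicate 4 sit near 0.09 and 0.10 and those of wt replicate 4 and Dup/+ replicate 3 near -0.11 and -0.10, while all genes stay near zero.

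Despite these shared shifts the members varied little. The within-group SD on the log2 CPM scale had a median of 0.09 over the members and 0.13 over all genes, and 30 of 37 members were below the median of all genes; the members were not matched to other genes in level. *Tbl1xr1*, *Ankrd11*, *Trip12* and *Dyrk1a* were steadiest at 0.05 each. *Foxp2* (0.73), *Tbr1* (0.32), *Asxl3* (0.26) and *Auts2* (0.20) varied most. *Foxp2* and *Asxl3* are also the members with fewest reads.

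**Figure D4:**
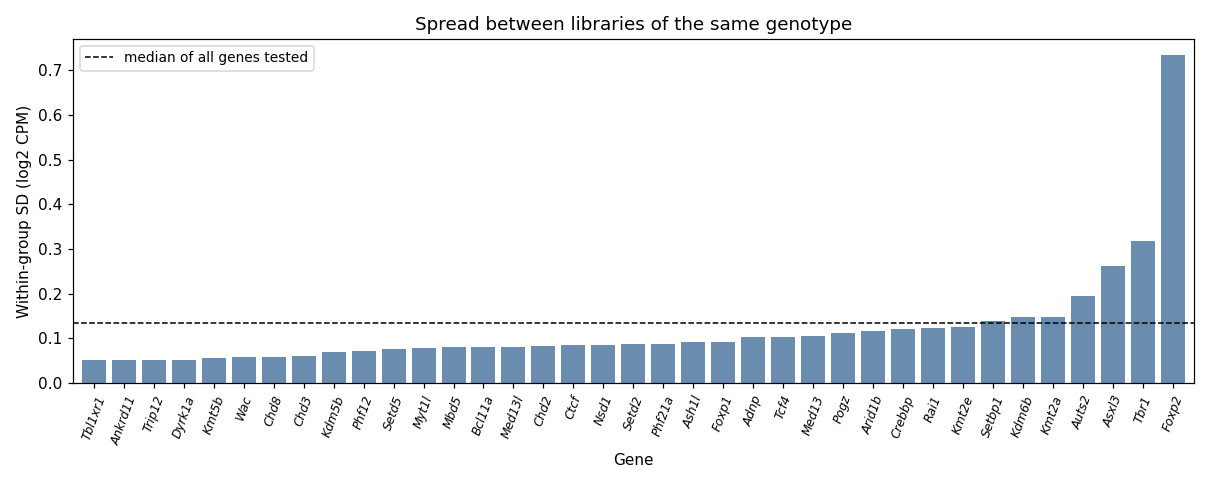
Within-group standard deviation of log2 CPM (bars, from 0) for each of the 37 regulators, ordered from least to most variable, with the median of all 15440 genes as a dashed line. The bars of 30 members end below the line, and *Foxp2* at 0.73 is the most variable.

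The promoter windows of the members, the 250 bases before each gene start in RefSeq on the GRCr8 assembly, were read for what the members share in sequence. Of the 37 regulators, 26 matched an entry by symbol. The GC box GGGCGG, a binding motif of Sp-type factors, was found on either strand in 18 of 26 windows (69.2%) and in 32.4% of all 27457 windows. CCAAT was found in 8 (30.8%, all windows 34.3%) and TATAAA in 3 (11.5%, all windows 13.1%), each motif being counted on both strands without regard to overlap with another. The median number of CpG dinucleotides was 14.5 in the members and 6.0 in all windows, and 6 of 26 members lay below the latter. All windows were taken regardless of expression, while every member passed the filter on low counts. The members were not matched to other genes in level or gene type. Windows are printed for *Arid1b*, the member furthest below wt in Del/+, for *Nsd1*, among the windows richest in CpG, and for *Tbl1xr1*, the steadiest member, with a window poor in CpG. They are at chr1:47973747-47973996 on the plus strand, chr17:9429522-9429771 on the minus strand and chr2:106730415-106730664 on the plus strand, each written 5′ to 3′ along the gene with GC boxes of either strand in capitals.
Arid1b: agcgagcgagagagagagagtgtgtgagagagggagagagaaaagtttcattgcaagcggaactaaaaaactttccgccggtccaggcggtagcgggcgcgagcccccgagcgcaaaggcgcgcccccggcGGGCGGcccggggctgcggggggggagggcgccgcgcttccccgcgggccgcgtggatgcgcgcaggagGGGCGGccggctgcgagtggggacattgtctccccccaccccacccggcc
Nsd1: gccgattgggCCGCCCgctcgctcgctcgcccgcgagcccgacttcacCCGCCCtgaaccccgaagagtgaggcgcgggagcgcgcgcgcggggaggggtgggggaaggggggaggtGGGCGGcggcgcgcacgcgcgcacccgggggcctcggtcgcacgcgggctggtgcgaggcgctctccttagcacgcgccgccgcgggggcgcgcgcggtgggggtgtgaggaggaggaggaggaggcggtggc
Tbl1xr1: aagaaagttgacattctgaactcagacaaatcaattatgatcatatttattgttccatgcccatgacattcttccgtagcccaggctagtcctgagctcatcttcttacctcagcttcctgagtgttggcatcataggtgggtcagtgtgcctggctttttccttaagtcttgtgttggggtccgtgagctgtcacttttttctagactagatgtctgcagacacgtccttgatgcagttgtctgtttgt

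The *Arid1b* window held 2 GC boxes and 31 CpG, the *Nsd1* window 3 GC boxes and 42 CpG, and the *Tbl1xr1* window none and 3 CpG. A match is a description of letters in this window, and its absence says nothing about a factor. The median GC content was 61.8% in the members' windows and 52.0% in all windows, and its part in the count of GC boxes was not tested.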

How the data were processed

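The authors prepared RNA-seq libraries from hippocampus, sequenced short single-end reads, aligned them with Hisat2 to Rno6 with Ensembl gene models and counted reads per gene with HTSeq-count. The deposited files hold unscaled read counts for each gene, 1 file per library, with 5 summary lines of the counting program, which were kept out of library sizes and tests. The submitters' processing notes also name bcl2fastq 2.17.1.14, R 3.6 and DESeq2. The labels give polyA RNA in a field and removal of rRNA in the protocol, and which holds was not settled here. Groups came from the description field of the labels.

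Genes passing filterByExpr were fitted with edgeR 4.0.16 (R 4.3.3) by the quasi-likelihood test on counts, with TMM scaling, a mean per group and all 19 libraries; p-values were adjusted by Benjamini-Hochberg over all 15440 genes, with calls at 0.05. Intervals are at 95%. CPM are on the TMM-scaled library size. The spread between replicates (biological coefficient of variation 0.101), not counting error, set the precision. Labels show 1 animal per library. Alternatives were DESeq2 1.42.0, library size alone, no filter, batch terms, a *Ttr* covariate, the other label of wt replicate 5, a replicate block, each library left out, and, chosen after seeing the data, the low-share libraries alone for Del/+ against wt and leaving out libraries with over 100 CPM of *Ttr*. The FCROS method of the study was not run here. The members, roles, partner and marker lists were chosen with earlier results of these data known. Genes named are the 3 members of smallest unadjusted p per comparison, called partners, the interval genes, and examples of each role, the last (and *Stag2*, *Ehmt2* and single markers) chosen after their values were seen. *Tbx6* of the interval list was too low to be tested. Windows of GRCr8 served for sequence alone. The fit was tested on simulated data.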

Additional observations from a re-analysis of the deposited data

Results flagged for a closer look

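In 148 groups of 4 to 6 libraries, 37 members in 4 genotypes, 10 values lay far from the rest of their group by Dixon's criterion, where chance flags about 1 in 20 groups. Of these, 4 came from wt replicate 5, each the highest of its group: *Chd3* at 835 CPM (other wt libraries 717 to 758), *Kmt2a* at 201 (139 to 160), *Kmt2e* at 112 (88.1 to 94.0) and *Foxp1* at 55 (45.2 to 48.4). *Nsd1* was low in wt replicate 4 at 264 CPM (295 to 311 in the others). *Rai1* was high in Dup/+ replicate 4 at 106 CPM (88.6 to 92.8). *Kmt2a* was low in Del/+ replicate 1 at 138 CPM (167 to 171) and *Ankrd11* high in Del/+ replicate 3 at 304 CPM (282 to 285). *Ash1l* was low in Del/Dup replicate 4 at 494 CPM (541 to 547) and *Kmt5b* high in Del/Dup replicate 3 at 85 CPM (78.3 to 79.3).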

How the results depend on the processing

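The number of members called stayed at 0 in Dup/+ against wt and in Del/+ against Del/Dup under each of 29 alternatives. In Del/+ against wt it was 1 with DESeq2 and 1 without the libraries of high *Ttr*, and leaving out 1 library at a time gave 0 to 1; in Del/Dup against wt leaving out 1 library gave 0 to 1, the call being made without Del/Dup replicate 3. The member called was *Arid1b* each time. It missed the threshold when the multi-mapped share entered as a batch term (-0.31, adjusted p = 0.267), when it entered as a covariate (-0.29, adjusted p = 0.159) and when the level of *Ttr* did (-0.24, adjusted p = 0.168). The cause of these differences was not tested. The median fold change of the members lay between -0.05 and -0.01 in Del/+ and between -0.05 and 0.01 in Dup/+ and likewise in Del/Dup, and between -0.03 and 0.03 for Del/+ against Del/Dup. With a replicate block 0 members were called in each comparison, and the median in Del/+ was -0.02. Residuals of libraries with the same number in different groups correlated at -0.17 to 0.12 (median 0.01). Those of libraries with other numbers correlated at -0.24 to 0.26 (median 0.00). The correlations gave no sign of pairing by number, but they cannot decide whether equal numbers mark related samples. DESeq2 gave an adjusted p for 35 of the 37 members in Del/+ against wt. Levels cannot be compared between members, since no gene lengths of the files' build were used. The groups of 4 to 6 animals limited detection most for *Foxp2*, *Tbr1* and *Asxl3*, which had the widest spread.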
